A study of Mus musculus with 2 samples.

Results

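The core circadian clock genes are the 10 genes Arntl, Clock, Npas2, Per1, Per2, Per3, Cry1, Cry2, Nr1d1 and Nr1d2, taken by name from the 21938 protein-coding genes of the mouse annotation GENCODE M21. They were examined by DNase-seq, a sequencing assay of the ends left where DNase I cuts open chromatin, in gastrocnemius, a large calf muscle, of female B6CASTF1/J mice aged 2 months, an F1 hybrid of the C57BL/6J and CAST strains. There was 1 group of 2 libraries, numbered replicates 1 and 2 in the labels, which describe a different female for each yet give both the same donor identifier, so whether the libraries came from separate animals is not settled. All values below are therefore descriptions of these libraries, set beside the same measure over all protein-coding genes, with no test. The time of day of tissue collection is not stated, so no phase of the clock can be assigned to any value.

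The circadian clock is a transcriptional feedback loop. BMAL1, the product of Arntl, pairs with CLOCK or NPAS2 and binds E-boxes, the sequence CACGTG, in the Per, Cry and Nr1d genes. The PER and CRY proteins return to the nucleus and inhibit this activator, while the receptors REV-ERB alpha (Nr1d1) and REV-ERB beta (Nr1d2) repress Arntl through ROR elements, which the ROR receptors use to activate it. A further element, the D-box, is bound by the activators DBP, TEF and HLF and by the repressor NFIL3. Skeletal muscle runs this clock in its own cells, where it times the use of glucose and fat, and the Per1 gene also responds to glucocorticoid hormones and to cAMP.

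Each gene was described by the peaks of accessibility in its gene body plus 10 kb on either side. A shared peak is a peak of replicate 1 and a peak of replicate 2 that overlap, merged into 1 region. A promoter peak is one that overlaps the 1 kb on either side of any annotated transcript start of the gene itself. The deposited signal of a peak has no stated scale, so it was read by its percentile, the percentage of peaks in the same library's list with a lower signal. A footprint is a stretch of a few bases inside accessible DNA where cuts are depleted. The windows of the 10 genes held 82 of the 49585 shared peaks of the whole genome.

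A selection of the sequences that hold clock elements of these genes in accessible DNA is shown here. They are read on the gene's own strand, 5' to 3', from GRCm38.p6, the reference build that mm10 corresponds to. Elements in shared peaks that are not shown include the E-prime boxes of Clock and of the Cry2 promoter. The intronic E-box of Arntl and the ROR elements of Clock and Npas2 are also not shown. Capitals mark the element. The stretches of Per1, Nr1d1, Nr1d2, Cry1 and Cry2 carry E-boxes, those of Per2 and Per3 carry D-boxes, and those of Arntl carry ROR elements.
Per1 E-box upstream of the 5' end, chr11:69095052-69095087, plus strand: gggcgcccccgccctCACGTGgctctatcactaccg
Per1 second upstream E-box, chr11:69094868-69094903, plus strand: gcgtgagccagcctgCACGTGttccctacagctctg
Per1 E-box upstream of the Per1-201 start, chr11:69098768-69098803, plus strand: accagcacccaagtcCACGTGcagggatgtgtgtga
Per1 glucocorticoid element and CRE, chr11:69097062-69097224, plus strand: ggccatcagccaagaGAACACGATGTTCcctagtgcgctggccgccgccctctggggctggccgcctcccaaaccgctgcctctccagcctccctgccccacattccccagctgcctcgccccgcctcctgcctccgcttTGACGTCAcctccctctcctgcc
Per2 D-box and E-prime box, chr1:91459299-91459464, minus strand: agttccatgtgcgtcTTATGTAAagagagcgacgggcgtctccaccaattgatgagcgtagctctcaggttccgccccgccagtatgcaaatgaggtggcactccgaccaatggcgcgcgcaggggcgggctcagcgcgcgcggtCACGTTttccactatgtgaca
Per3 pair of D-boxes, chr4:151044801-151044885, minus strand: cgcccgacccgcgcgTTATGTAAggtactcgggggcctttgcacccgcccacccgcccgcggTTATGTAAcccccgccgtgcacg
Cry1 E-prime box and E-box, chr10:85185094-85185148, minus strand: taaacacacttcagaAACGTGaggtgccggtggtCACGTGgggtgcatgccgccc
Cry2 pair of intronic E-boxes, chr2:92423852-92423940, minus strand: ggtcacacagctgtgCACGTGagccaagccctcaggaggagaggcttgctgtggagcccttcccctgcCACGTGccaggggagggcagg
Nr1d1 far upstream E-box, chr11:98783527-98783562, minus strand: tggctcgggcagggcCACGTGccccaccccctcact
Nr1d1 intronic E-box and D-box, chr11:98774065-98774174, minus strand: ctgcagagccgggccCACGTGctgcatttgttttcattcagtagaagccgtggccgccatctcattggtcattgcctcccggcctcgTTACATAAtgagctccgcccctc
Nr1d1 pair of intronic E-boxes, chr11:98773844-98773894, minus strand: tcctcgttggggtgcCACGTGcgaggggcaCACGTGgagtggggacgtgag
Nr1d2 intronic E-boxes and D-box, chr14:18238510-18238693, minus strand: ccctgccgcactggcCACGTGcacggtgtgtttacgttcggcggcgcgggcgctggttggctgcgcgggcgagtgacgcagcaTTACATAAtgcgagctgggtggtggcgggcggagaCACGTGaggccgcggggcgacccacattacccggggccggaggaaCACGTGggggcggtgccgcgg
Arntl ROR element, chr7:113207529-113207557, plus strand: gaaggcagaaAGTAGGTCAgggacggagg
Arntl ROR element variant, chr7:113207493-113207521, plus strand: ttggtcggaaAGTAGGTTAgtggtgcgac

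Every core clock gene had an accessible promoter in this muscle. A promoter peak was called in both libraries for 10 of 10 core clock genes, against 60.2% of all protein-coding genes. The strongest promoter peak lay above the 95th percentile in both libraries for 8 of the 10, against 15% of all protein-coding genes, and the exceptions were Clock and Npas2. The mean percentile over both libraries had a median of 99.25 over the core clock genes, against 92.4 over the protein-coding genes with a promoter peak in both. All 10 of the strongest promoter peaks were centred upstream of the annotated 5' end, from 29 to 850 bases away.

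**Figure D1:**
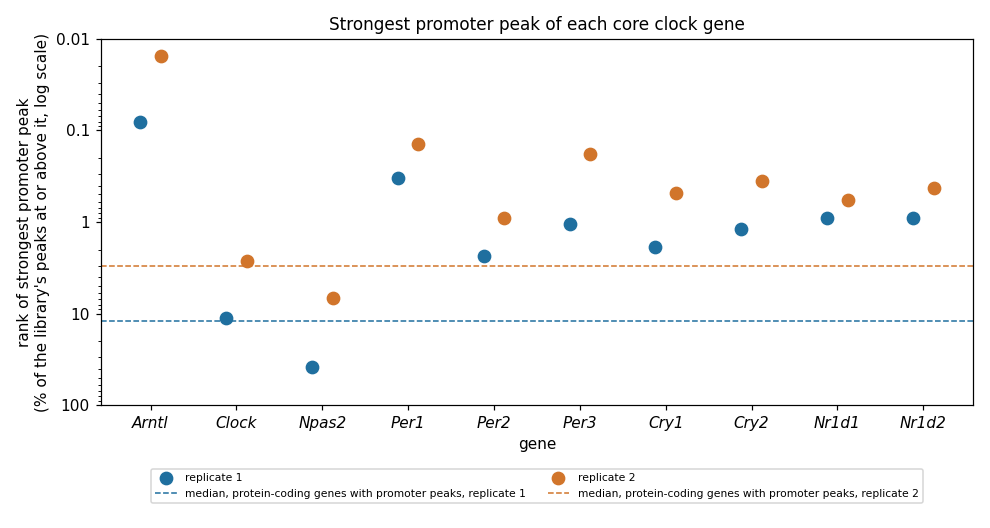
Rank of the strongest promoter peak of each core clock gene in each library, as the percentage of that library's peaks at or above it (vertical log axis, stronger upward), with dashed lines at the median of protein-coding genes with a promoter peak in both libraries. Arntl ranks highest in both libraries, Npas2 ranks lowest and lies below both lines, and Clock lies close to them.

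Among the activators, Arntl had the strongest promoter of the set. Its promoter peak, merged over both libraries, was chr7:113207161-113207480. In replicate 1 the peak spanned the 5' end of the gene at 113207465, and in replicate 2 it ended just short, at 113207460. This promoter peak had a signal of 16.7 in replicate 1 and 55.4 in replicate 2. It ranked 54th of 66984 peaks in replicate 1 and 40th of 258342 in replicate 2, at percentiles of 99.92 and 99.98. This single peak was the only shared promoter peak of Arntl, although the gene has 6 annotated starts. The other 7 shared peaks of Arntl lay inside the gene, in introns 1 and 2 of transcript Arntl-201, and their mean percentiles ran from 58.98 to 83.98, far below the promoter.

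Clock, which encodes the partner of BMAL1, had a weaker promoter. The signal was 2.59 in replicate 1 and 5.91 in replicate 2, at percentiles of 88.67 and 97.34. A second peak in its intron 1, chr5:76303781-76304120, was nearly as strong, with percentiles of 82.04 and 96.22. Clock had no shared peak outside its promoter in a window of 114.9 kb.

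Npas2, which encodes a partner that can stand in for CLOCK, had the weakest promoter of the 10. Its strongest promoter peak had a signal of 0.948 in replicate 1 and 2.62 in replicate 2, at percentiles of 61.79 and 93.27. The accessible stretch round its starts was made up of 3 neighbouring calls, and the strongest was centred 850 bases upstream of the 5' end. Another of these calls was centred 76 bases from the start of transcript Npas2-201. Its signal was nearly as high in replicate 1, at 0.931, and lower in replicate 2, at 1.55. The strongest shared peak in its window was 31 bases from the start of Rpl31, a ribosomal protein gene downstream, and it had a mean percentile of 96.41. Per library, the promoter of Npas2 was therefore weaker than those of the other 9 genes in replicate 1 and in replicate 2 alike.

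The period genes differed from each other mainly in how many peaks surrounded them. Per1 had 27 shared peaks in a window of 34.7 kb, 7.77 per 10 kb, the 37th highest number among all protein-coding genes. Of these, 8 were promoter peaks and 19 were not. The strongest, chr11:69094781-69095260, lay at the upstream start and had signals of 12 in replicate 1 and 29.7 in replicate 2, at percentiles of 99.67 and 99.86. Further peaks stood at the start of transcript Per1-201, 3731 bases downstream of the 5' end, with a mean percentile of 98.27, and at the starts 4935 and 4941 bases downstream, with a mean percentile of 97.54. Per1 thus had an accessible region at each of these annotated starts.

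The strongest distal peak of Per1, chr11:69096981-69097300, lay in an intron of the transcript that starts at the 5' end, 1797 bases upstream of the Per1-201 start. It had signals of 7.58 in replicate 1 and 16.2 in replicate 2, and percentiles of 98.57 and 99.44. The peak held a glucocorticoid element, GAACACGATGTTC, and a CRE, TGACGTCA, the element through which cAMP acts, and a footprint of each library overlapped each of them. Protected CREs were common, at 67.3% of the 770 CREs in all shared peaks and at 89.7% of the 243 in peaks at or above the 95th percentile by the mean of both libraries. Protected glucocorticoid elements were less common, at 8.32% of 601 in all shared peaks and at 32.6% of 43 in such strong peaks. This was the only CRE among the 82 shared peaks. A second match to the glucocorticoid pattern, GAACATCCTGTTC, lay in the weaker peak that follows the Per1-201 start and had no footprint in either library. The remaining match in shared peaks of these genes, in the Cry1 window near the start of Mterf2, had a footprint in both, so 2 of 3 matches did. Of the 27 peaks, 10 were nearer to the start of another protein-coding gene, 3 of them to Vamp2 upstream and 7 to Hes7 downstream, so they cannot be assigned to Per1 from their position.

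**Figure D2:**
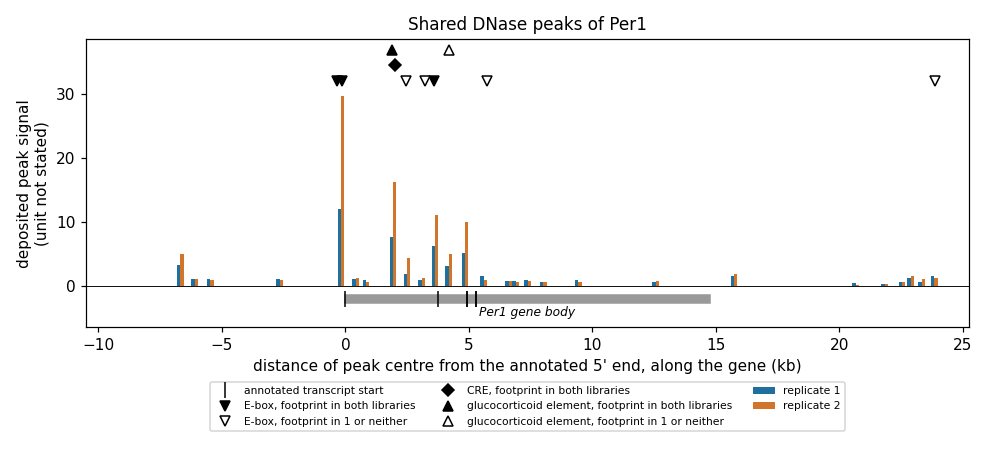
Shared peaks of Per1 by the distance of their centre from the annotated 5' end (horizontal, kb along the gene), with the deposited signal of each library as bars (vertical, unit not stated) and motif sites above, filled where a footprint of both libraries overlaps them. The tall bars stand at the 5' end, at the intronic peak with the glucocorticoid element and CRE, and at the downstream starts, while the bars over the rest of the gene and its flanks are low.

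Per2 had 11 shared peaks in 63.3 kb, 2 at the promoter and 9 elsewhere. Its promoter peak, chr1:91459321-91459660, had signals of 6.26 in replicate 1 and 12.4 in replicate 2, at percentiles of 97.65 and 99.09. A peak 104 bases from the start of the neighbouring gene Hes6 was stronger, with percentiles of 98.37 and 99.69, and 3 of the 11 peaks were nearer to that gene than to Per2. The libraries differed most at Per2 in the number of calls, with 13 peaks in replicate 1 and 61 in replicate 2, of which 50 overlapped no peak of replicate 1.

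Per3 had 3 shared peaks, all at its promoter. The main peak had signals of 8.55 in replicate 1 and 26.9 in replicate 2, at percentiles of 98.96 and 99.82. Its window of 61 kb held 3 peaks in replicate 1 and 6 in replicate 2, of which 3 overlapped no peak of replicate 1. All 8 footprints of replicate 1 in the window were at promoters, and 6 of the 10 of replicate 2 were. Per3 ranked above Per2 by promoter percentile in both libraries, and it had fewer shared peaks.

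The cryptochrome genes, which encode the repressors that act with PER, also had strong promoters. Cry1 had a promoter peak with signals of 6.83 in replicate 1 and 17.5 in replicate 2, at percentiles of 98.12 and 99.52. An adjoining peak 32 bases upstream of the 5' end was almost as strong, with percentiles of 97.48 and 98.85. The only distal shared peak of Cry1 lay 59 bases from the start of its neighbour Mterf2. Cry2 had a promoter peak with signals of 8.13 in replicate 1 and 20.2 in replicate 2, at percentiles of 98.81 and 99.64. Of its 4 distal shared peaks, the strongest was chr2:92423761-92424040 in intron 3 of Cry2-201, with percentiles of 95.93 and 98.37, and it held the pair of E-boxes shown above.

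Nr1d1 was set in a dense group of strong peaks. It had 11 shared peaks in 27.4 kb, 4.01 per 10 kb, the second highest density of the 10 after Per1. Its promoter peak had signals of 9.02 in replicate 1 and 15.9 in replicate 2, at percentiles of 99.1 and 99.42. A peak in intron 1, chr11:98773761-98774220, had signals of 9.45 and 20.9 in replicates 1 and 2, and a peak centred 8183 bases upstream, chr11:98783381-98783640, had signals of 9.36 and 25.1. Both distal peaks thus carried more signal than the promoter in each library, and their mean percentiles were 99.44 and 99.49, against 99.26 for the promoter. Nr1d1 was in this unlike Arntl, where no distal peak reached the 85th percentile by the mean of both libraries.

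**Figure D3:**
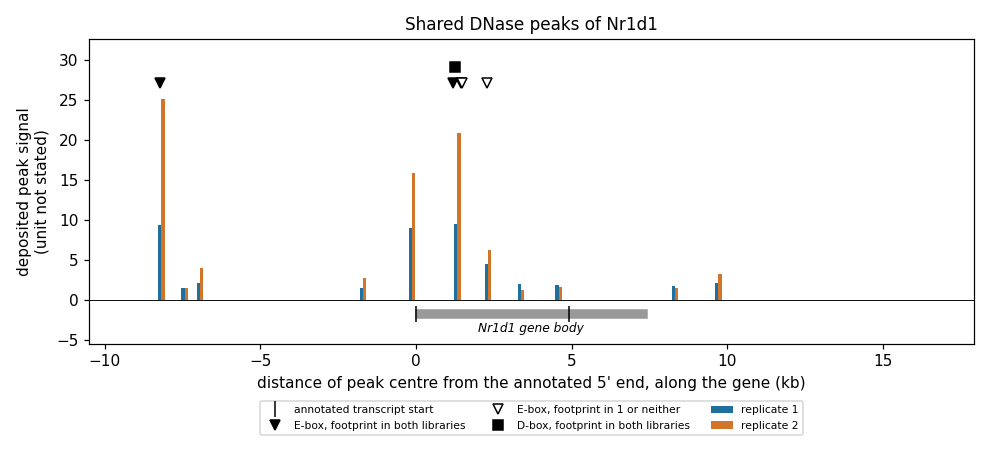
Shared peaks of Nr1d1 by the distance of their centre from the annotated 5' end (horizontal, kb along the gene), with the deposited signal of each library as bars (vertical, unit not stated) and motif sites above, filled where a footprint of both libraries overlaps them. In each library 3 tall bars stand out, at the promoter, in intron 1 and 8183 bases upstream, and E-boxes lie in the intronic and upstream ones.

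Nr1d2 had fewer but similarly strong peaks. Its main promoter peak had signals of 8.99 in replicate 1 and 18.5 in replicate 2, at percentiles of 99.09 and 99.57. A second peak, chr14:18238341-18238660, lay in intron 1 of Nr1d2-201, 505 bases from the nearest start, with signals of 8.38 and 13.6. The E-boxes and the D-box of Nr1d2 were in or beside the second peak and none was in the first. The remaining shared peak of Nr1d2 lay further inside intron 1 and was weak, with a mean percentile of 68.84.

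Over the 10 genes the median was 6.5 shared peaks per window, against 2 over all protein-coding genes. The windows of the core clock genes were longer, with a median of 62.2 kb against 37.4 kb, and per 10 kb the medians were 0.588 and 0.327. Clock, Arntl, Npas2, Per3, Cry1 and Nr1d2 each had under 1 shared peak per 10 kb, and Per1, Nr1d1, Per2 and Cry2 each had more. Of the 82 shared peaks 28 were promoter peaks, 23 were intronic, 8 exonic, 9 in the upstream flanks and 14 in the downstream flanks. The 54 peaks outside the genes' own promoters had a median mean percentile of 81.94, against 91.06 for the 28 promoter peaks. Of the 54, 15 were nearest to the start of another protein-coding gene, and some lay at that gene's promoter. Of the 20 shared peaks at or above the 95th percentile by mean percentile, 12 were promoter peaks of the core clock genes. The others included peaks 104 bases from a start of Hes6, 59 bases from Mterf2 and 31 bases from Rpl31.

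**Figure D4:**
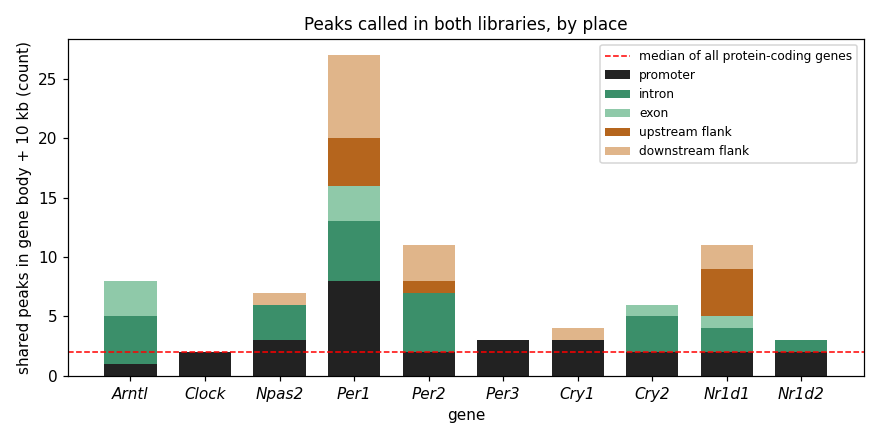
Number of shared peaks in the gene body plus 10 kb of each core clock gene (vertical, count), stacked by place, with a dashed line at the median of 2 over all protein-coding genes. Per1 stands highest with 27 shared peaks, Per2 and Nr1d1 follow with 11 each, and Clock has 2, both at its promoter.

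The number of calls depended strongly on the library. Replicate 1 had 66984 peaks and 153010 footprints, and replicate 2 had 258342 peaks and 338761 footprints. In the windows of the core clock genes the median was 6.5 peaks in replicate 1 and 25.5 in replicate 2. At Nr1d1 this meant 13 peaks in replicate 1 and 34 in replicate 2, and at Arntl 8 and 28. Sequencing depth is not stated, and its part in these counts was not tested. A shared peak thus rests mainly on what replicate 1 detected, and a site absent from the shared set is not shown to be closed.

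The tissue label was checked against marker genes. Promoter peaks were called in both libraries at 6 of 6 skeletal muscle markers (Ckm, Acta1, Pygm, Atp2a1, Mylpf and Tnnt3), with mean percentiles from 96.2 to 98.8, and at 0 of 3 hepatocyte markers. Both libraries had them at 2 of 3 endothelial markers, with lower mean percentiles of 76.5 (Cdh5) and 75.5 (Tek). At 2 of 3 neuronal markers both libraries had them, with mean percentiles of 52.1 (Snap25) and 40.8 (Syt1). Macrophage markers had them in both libraries at 0 of 3, and in replicate 2 at 3 of 3. In whole muscle, a site open in few cells and a site weakly open in many cannot be told apart, and the part of these other cells in the clock gene peaks was not tested.

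Footprints were present at every core clock promoter. All 10 genes had at least 1 promoter footprint of replicate 1 that overlapped one of replicate 2, against 52.9% of all protein-coding genes. The median was 9.5 promoter footprints in each library and 5.5 overlapping between them, against 3 in each and 1 overlapping over all protein-coding genes. These footprints were counted only inside called peaks. Of the background genes just 60.2% carried peaks from each library at their promoters, while all 10 core clock genes did. Both contrasts therefore partly repeat that of the promoter peaks. A background limited to genes with such peaks was not computed, so a difference beyond the peaks was not tested. Per1, with 6 annotated starts, had most, with 23 in replicate 1, 21 in replicate 2 and 13 overlapping. By overlapping footprints Nr1d2 came next with 10, from 15 in replicate 1 and 10 in replicate 2. Npas2 had 12 in replicate 1 and 5 in replicate 2, of which 2 overlapped, the fewest of the 10. Nr1d1 showed the reverse imbalance, with 5 in replicate 1 and 18 in replicate 2. A footprint says that bases were protected from cutting and does not name the protein.

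Sequence elements were sought in shared peaks on both strands: the E-box CACGTG, the E-prime box CACGTT, the D-box TTATGTAA or TTACGTAA, the ROR element ANTAGGTCA or ANTGGGTCA, the CRE TGACGTCA, the GC box GGGCGG, the CCAAT box, the muscle E-box CAGCTG, the MEF2 site CTAAAAATA, and a glucocorticoid element of GNACA and TGTNC with 3 bases between. No pattern holds another whole, though matches may overlap in part. Shares of regions refer to 300 bp, centred on each shared peak or running across each RefSeq promoter.

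An E-box lay in a shared peak of the window of 6 of the 10 core clock genes, against 18.9% of all protein-coding genes, whose windows were shorter. The 6 were Per1, Cry1, Cry2, Arntl, Nr1d1 and Nr1d2. Of the core clock genes' 82 peak windows 15.9% held an E-box, against 7.96% of all shared peaks, and 7.15% of 32851 RefSeq promoters held one. In all there were 18 E-boxes in the full shared peaks, 7 of them at Per1 and 5 at Nr1d1. A footprint of both libraries overlapped 11 of the 18, against 18.9% of the 4411 E-boxes in all shared peaks. The share was higher in strong peaks over the whole genome, so the same was counted, as a setting added after the first values were seen, in shared peaks at or above the 95th percentile by the mean of both libraries. There 10 of 13 E-boxes of the core clock genes had a footprint of both libraries, against 50.5% of 847 E-boxes of all such peaks.

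At Per1, both E-boxes of the upstream promoter peak, centred 332 and 148 bases upstream of the 5' end, and the E-box 163 bases upstream of the Per1-201 start had footprints in both libraries. The 4 other E-boxes of Per1 lay in peaks with mean percentiles from 72.26 to 89.23, and none had a footprint in both. At Cry1 the E-box was centred 47 bases upstream of the 5' end, with a footprint in both libraries, and the E-prime box beside it had one in replicate 2. Both E-boxes of the Cry2 intron had footprints in both libraries. At Nr1d1 the upstream E-box and 2 of 3 E-boxes of the strong intronic peak had footprints in both libraries. The E-box of a further intron 1 peak of Nr1d1, with a mean percentile of 96.43, had one in replicate 1 only. The E-box centred 1472 bases downstream of the 5' end, whose neighbour at 1457 bases was protected, had none in either library. At Nr1d2, 1 of 2 E-boxes in the second peak had a footprint in both libraries and the other had one in replicate 1. The single E-box of Arntl, in an intron 1 peak with a mean percentile of 83.98, had a footprint in both. Of the 8 E-prime boxes in shared peaks of these genes, 2 had a footprint in both libraries, against 7.41% of the 2456 in all shared peaks. They lay in the Cry2 promoter, centred 189 bases upstream of the 5' end, and in the second peak of Clock. In peaks at or above the 95th percentile the count was 1 of 3, against 29.5% of 305.

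**Figure D5:**
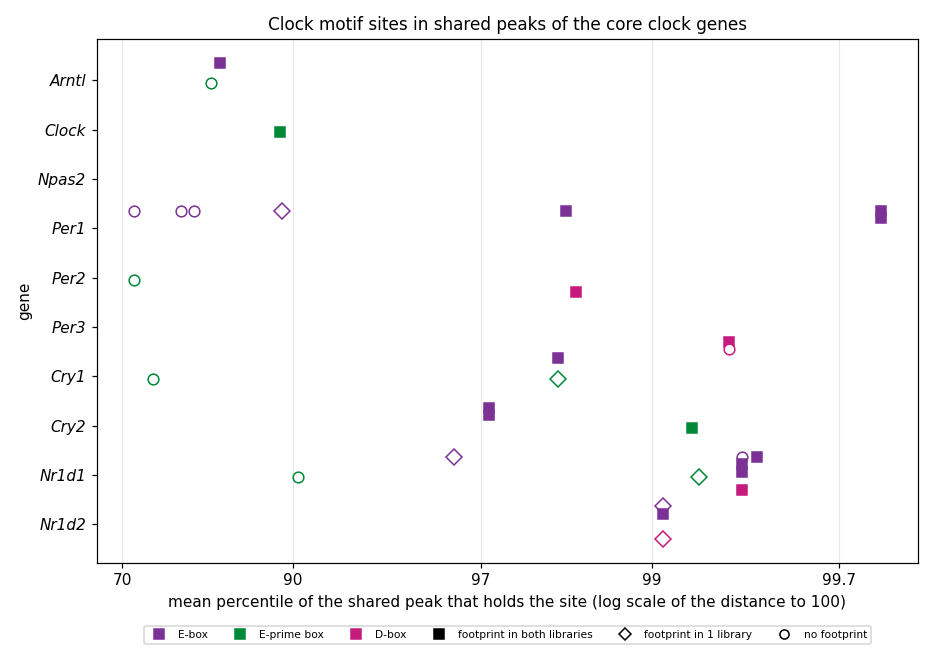
E-boxes, E-prime boxes and D-boxes in shared peaks of each core clock gene (rows), by the mean percentile of the peak that holds them (horizontal, log scale of the distance to 100), with filled squares for a footprint in both libraries, open diamonds for a footprint in 1 and open circles for none. Filled squares lie mostly toward the strong peaks on the right, and Npas2 has no site.

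Per2 and Per3 had no E-box in a shared peak and carried D-boxes at their promoters. D-boxes were rarer in shared peaks than E-boxes, E-prime boxes and ROR elements. Of the core clock genes' 82 peak windows 6.1% held a D-box, against 0.823% of all shared peaks, and 1.06% of RefSeq promoters held one. The 5 D-boxes in their full shared peaks belonged to Per2, Per3, Nr1d1 and Nr1d2. A footprint of both libraries overlapped 3 of the 5, against 12% of the 350 D-boxes in all shared peaks, and all 5 lay in peaks at or above the 95th percentile, where the share over 38 D-boxes was 50%. The protected D-boxes were that of Per2, centred 121 bases upstream of the 5' end, the Per3 site 154 bases upstream and the Nr1d1 intronic site 1250 bases downstream. The other D-box of Per3, 201 bases upstream, had no footprint in either library, and that of Nr1d2 had one in replicate 2.

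The E-prime box of Per2, a non-canonical E-box known to drive this gene, began 5 bases downstream of the 5' end and lay just outside the called peaks, 1 base from the peak of replicate 1 and 21 bases from that of replicate 2. It was inside the deposited segments of high cut rate, which have a false discovery rate of at most 0.05, in both libraries, and no footprint overlapped it. In shared peaks there were 3 ROR elements, 1 at Clock and 2 at Npas2, and none had a footprint in either library, against 5.48% of 858 with one in both over all shared peaks. Of the core clock genes' peak windows 3.66% held a ROR element, against 1.87% of all shared peaks. The ROR elements of Arntl, through which REV-ERB represses this gene, lay outside the called peaks like the E-prime box of Per2. The element AGTAGGTCA began 74 bases downstream of the 5' end, 58 bases beyond the promoter peak of replicate 1 and 78 beyond that of replicate 2, and had no footprint. The variant AGTAGGTTA began 38 bases downstream and had a footprint in replicate 2 only. It differs from the searched patterns and was added after the sequence had been read. Both lay wholly inside the cut rate segments of both libraries. The very strong Arntl peak therefore stopped short of its ROR elements as the peaks were drawn, while accessible DNA by the segment criterion reached across them. Also outside the called peaks but inside these segments were an E-box 367 bases and an E-prime box 354 bases upstream of the Nr1d1 5' end. So were an E-box 449 bases and a glucocorticoid match 879 bases downstream of the Nr1d2 5' end. None of these sites had a footprint. A second D-box of Per2, TTACGTAA, began 222 bases downstream of the 5' end. It too lay outside the called peaks and inside the segments of both libraries, and had a footprint in replicate 1 only.

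The segments covered the promoters of the core clock genes broadly. Within 1 kb of the 5' end, the median share of bases covered was 70% in replicate 1 and 80.3% in replicate 2, against 15.2% and 27.4% over all protein-coding genes. That background includes genes without a promoter peak, whereas all 10 core clock genes had one in both libraries. Over whole windows the medians were 2.97% and 6.41%, against 1.47% and 2.92%. Per1 and Nr1d1 had the widest cover, with 34.8% of the Per1 window in replicate 1 and 44.5% in replicate 2, and with 21.2% and 55.2% of the Nr1d1 window.

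The muscle E-box CAGCTG, bound by myogenic factors such as MyoD, was not more frequent at these genes. It lay in 23.2% of the core clock genes' peak windows, against 29.1% of all shared peaks. Of the 28 promoter peak windows of these genes 16 held a GC box, against 61.5% of all shared peaks at promoters, and 15 held a CCAAT box, against 32.5%. The rules differ slightly, as the background peaks were centred within 1 kb of any coding start. The 28 needed only to overlap the 1 kb on either side of a start of their gene. The promoter peak of Arntl, of 320 bp, held 9 CCAAT boxes, of which 2 overlap, and 6 of these had a footprint in both libraries. Over the core clock genes 21 of 55 CCAAT boxes had one, against 23.3% in all shared peaks, and in peaks at or above the 95th percentile 20 of 33 had one, against 57.2%. In base composition the strongest promoter peaks were like promoters at large, with a median GC content of 66% and a ratio of observed to expected CpG of 0.777, against 64% and 0.758 over the 20201 shared peaks within 1 kb of a coding start.

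The further genes of the clock were also accessible. These were 17 genes that encode clock outputs, ROR receptors and the kinases and ubiquitin ligases that act on PER and CRY. Promoter peaks were called in both libraries at 17 of 17, against 60.2% of all protein-coding genes. Their strongest promoter peaks had a median mean percentile of 95.5, against 92.4 over the protein-coding genes with a promoter peak in both. Their windows had a median of 8 shared peaks, 1.32 per 10 kb, against 2 and 0.327 over all protein-coding genes. By number, most shared peaks were found at Rora, which encodes a ROR receptor, with 36 in a window of 754.5 kb, or 0.477 per 10 kb. Usp2, a ubiquitin protease gene, had 17, or 3.5 per 10 kb, and Csnk1d, which encodes a kinase of PER, had 15, or 3.03 per 10 kb. By density Dbp, a D-box activator gene named after its value was seen, was highest of the 17 with 5.57 per 10 kb, although 8 of its 14 peaks were nearer to another gene. Of the 15 peaks of Csnk1d, 10 were nearer to the start of another protein-coding gene.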

How the data were processed

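DNase-seq libraries of gastrocnemius, 2 in number, were analysed from the files the authors deposited. Per the labels, the build is mm10, and the deposited README describes peak calling per library. No aligner or caller is named in the sources used here, and sequencing depth is not given there, so the depth behind each value is unknown. Of the 2 peak lists of a library the longer was used, and the authors' signal value per peak was ranked only within a list. The deposited p-value column of the footprints was read only for its maximum in replicate 1 and its minimum in replicate 2. Both were 0.01, and these readings do not compare the stringency of the libraries. The segments of cut rate carried a p-value column, read as a false discovery rate, per the file headers and README. Reads of a hybrid were placed on the C57BL/6J reference, per the build in the labels, which can lower signal where the CAST allele differs, and alleles were not separated here.

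Overlapping peaks of both libraries, by at least 1 bp, were merged into shared peaks. A shared peak was assigned to a window by its midpoint, the mean of the midpoints of the strongest peak of each library. Annotation was GENCODE M21, and sequence was GRCm38.p6, with promoters from RefSeq on the same build. No row of the files lay past a chromosome end. Positions of motif sites in peaks are those of the site's centre, and those of sites outside peaks are of the first base. All 10 core clock genes are named, and of the further clock genes the 3 with most shared peaks. The genes, lists and measures were chosen with earlier results of these data known. With 1 group and 2 libraries no test was run, and counts are set beside those over all protein-coding genes, which are no replicates. Functions were tested on simulated peaks and motifs. Alternatives changed the peak list, the signal minimum, the overlap, the promoter width, the starts used and the window, and left out each library. Python 3.11.15, numpy 2.4.6, pandas 2.3.3, pysam 0.24.0, samtools 1.23.1 and matplotlib 3.10.9 were used.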

Additional observations from a re-analysis of the deposited data

How the results depend on the processing

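Of 48 recomputed values of the 6 summary measures, 45 moved by less than the spread between replicates or, for counts of genes, by less than 1.5 times, and 3 moved by more. Leaving out each library in turn gave a median of 6.5 to 25.5 peaks per core clock gene window and 0.679 to 2.1 peaks per 10 kb, with the high values from replicate 2 alone. It also gave a median promoter percentile of 98.88 to 99.54 and 6 to 8 core clock genes with an E-box in a peak, as Per2 and Npas2 joined with replicate 2 alone. With the shorter peak lists the median promoter percentile was 98.69, against 99.25, and in replicate 1 the median signal of the shorter list was 1.15, against 0.738 in the longer one. The count of promoters with a peak in both libraries stayed at 10 under every alternative run, which were the shorter lists, the stronger 50% of each list, an overlap of 50% of both peaks, promoters of 500 bp and of 2 kb, and the 5' end alone. With promoters of 500 bp Npas2 had no overlapping footprint, leaving 9 genes, and over gene bodies alone Cry1 had no E-box, leaving 5. For the median of 6.5 shared peaks the spread between replicates was 13.4, so this measure could move far without passing it. Per 10 kb the spread was 1.01 against a median of 0.588, so no fall could pass it. The spread was taken from the values with each library left out, which are themselves among those judged. The median number of shared peaks was 4 over gene bodies alone, 9 with flanks of 50 kb, 5 with an overlap of 50% of both peaks, and 6 without peaks nearer to another gene. No paired analysis was possible because the libraries form 1 group. The number of called peaks in replicate 1 limits which sites can be shared.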
